A study of Mus musculus with 6 samples.

Results

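The genes described here encode the MHC class I molecule: 9 of the heavy chains of the mouse H2 region (H2-K1, H2-D1, H2-Q4, H2-Q6, H2-Q7, H2-T22, H2-T23, H2-T24 and H2-M3) and B2m, beta-2 microglobulin, the light chain they share. These 10 members were taken by gene name from a table of 54532 genes, in N9 cells, a murine microglial cell line. N9 cultures were left untreated as control, or received LPS (lipopolysaccharide, a component of the bacterial outer membrane) at 1 µg/ml for 6 h, and each group had 3 RNA-seq libraries. No other genotype, treatment or time was used. N9 is a single immortalised line grown alone in serum-containing medium, and nothing in the sources says that the replicates came from separate cultures, so the p-values measure the spread between these libraries, which may be technical.

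MHC class I molecules carry peptides from inside the cell to its surface, where CD8 T cells and natural killer cells read them. A heavy chain folds with B2m in the endoplasmic reticulum and is loaded with a peptide that the proteasome made and the TAP transporter moved across the membrane. H2-K1 and H2-D1 are the classical, highly polymorphic heavy chains, and the Q, T and M genes are the less variable non-classical ones. Interferons and NF-kappa B signalling are known to raise transcription of these genes through a conserved upstream region, and microglia, the macrophages of the brain, carry little class I at rest.

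The libraries held between 16363767 and 17956772 assigned counts. Values are given as CPM, the count scaled to the TMM-normalised library total, or as RPKM, the same per kilobase of the gene length in the table, where levels of different genes are compared. At this depth 3 counts corresponded to between 0.161 and 0.19 CPM. Of 15 microglia and macrophage markers, 13 had over 3 counts in all 6 libraries, with a summed level of 2332 to 2398 CPM in control and 2513 to 2577 CPM with LPS. The highest in mean CPM over all 6 libraries were Cd68, Csf1r, Spi1 and Ptprc. They were at 624, 432, 282 and 209.7 CPM in control, where Tyrobp was above Ptprc at 213.6 CPM. P2ry12 and C1qa, which mark resting and tissue microglia, were at 3 counts or fewer in some libraries. The 6 lymphocyte markers were at 3 counts or fewer in every library, and 4 of them were at 0 throughout. Of 5 dendritic cell markers, 3 were at 3 counts or fewer in every library (Flt3, Clec9a and Cd209a). The list summed to 5.39 to 6.48 CPM in control and to 16.2 to 19.1 CPM with LPS, where Xcr1 alone rose (log2 fold change 2.57, edgeR adjusted p = 2.4e-08), and the part of such cells in the class I values was not tested. Transcripts of 9 hepatocyte genes summed to 14.6 and 23.9 CPM in control replicates 2 and 3, against 0.234 CPM in control replicate 1 and 0.127 to 0.548 CPM with LPS. The 5 fibroblast markers summed to 11.2, 0.454 and 7.15 CPM in control and to 7.73, 0.793 and 0.792 CPM with LPS, so that control replicate 1 was the highest in these. The neuron markers summed to 26.3 to 27.9 CPM in control and to 27.7 to 32.3 CPM with LPS, where Tubb3, a tubulin, rose (log2 fold change 1.67, edgeR adjusted p = 7.3e-07) and Map2, a microtubule-associated protein, fell (log2 fold change -0.41, edgeR adjusted p = 0.00221). The 5 astrocyte markers summed to 96.0 to 98.7 CPM in control and to 96.0 to 104.6 CPM with LPS, where Gja1, a gap junction protein, rose (log2 fold change 0.18, edgeR adjusted p = 0.0099) and Aldh1l1, a folate enzyme, fell (log2 fold change -0.29, edgeR adjusted p = 0.0129). The part of these transcripts in the class I values was not tested. With control replicate 1 as the only control, an alternative chosen after seeing the data, the spread came from the LPS libraries alone and the lone control was assumed to vary like them. The log2 fold change was then 0.47 for B2m (0.47 with all 3 controls), 0.59 for H2-K1 (0.64), 0.72 for H2-D1 (0.78), 1.35 for H2-Q4 (1.21), 1.02 for H2-T22 (1.04), 1.03 for H2-T23 (1.24), 1.85 for H2-T24 (1.98), 0.12 for H2-M3 (0.22) and 0.84 for H2-Q7 (0.22).

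Class I promoters are known for a shared upstream region, and the members' own are shown by that stretch. RefSeq promoter sequences (GRCm38.p6, 250 bases before to 50 bases after the start) were matched for 9 of the 10 members. H2-T24 had no entry. In each line below, read 5′ to 3′ on the strand of the gene, the capitals mark matches to a kappa B motif (GGG, any 2 bases, T, any 2 bases, CC) and to an interferon-type motif. That motif was the core of the interferon-stimulated response element (GAAA, any 2 bases, GAAA) or the shorter GAANNGAAA, which was added after the sequences had been seen. Both strands were searched, so that the shorter motif appears as TTTCNNTTC on the strand printed.
B2m: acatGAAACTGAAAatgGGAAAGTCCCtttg
H2-K1: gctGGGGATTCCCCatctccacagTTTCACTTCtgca
H2-D1: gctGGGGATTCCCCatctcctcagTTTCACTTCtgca
H2-Q4: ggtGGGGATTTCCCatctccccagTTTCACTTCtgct
H2-Q6: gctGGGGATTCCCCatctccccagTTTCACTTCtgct
H2-Q7: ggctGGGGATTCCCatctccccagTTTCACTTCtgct
H2-T22: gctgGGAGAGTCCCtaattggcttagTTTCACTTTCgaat
H2-T23: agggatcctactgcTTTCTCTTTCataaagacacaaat
H2-M3: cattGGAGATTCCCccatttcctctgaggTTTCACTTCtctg

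The printed stretches lie at chr2:122147544-122147574 (B2m), chr17:34000425-34000461 (H2-K1), chr17:35262920-35262956 (H2-D1), chr17:35379440-35379476 (H2-Q4), chr17:35424674-35424710 (H2-Q6), chr17:35439018-35439054 (H2-Q7), chr17:36042920-36042959 (H2-T22), chr17:36032802-36032839 (H2-T23) and chr17:37270104-37270145 (H2-M3). H2-K1, H2-T22 and H2-T23 are on the minus strand and the others on the plus strand. The RefSeq start site used for the window differs from the gene boundary of the count table in some members, so that the stretches of H2-D1 and H2-T23 lie inside the gene as the table gives it. The full interferon core was present in B2m, H2-T22 and H2-T23 and in 3.44% of 32851 RefSeq promoters of the same length. The shorter form was found in the other 6 members with a promoter and in 7.52% of all promoters. A kappa B match stood in 8 of 9 members, all but H2-T23, and in 18.4% of all promoters. Both kinds of motif were present in B2m, H2-K1, H2-D1, H2-Q4 and H2-T22, which rose with LPS. They were also present in H2-M3 and H2-Q7, which did not pass the test, and in H2-Q6, which was below the filter. H2-T23, which rose, had the interferon core and no kappa B match. The relation of the motifs to the change with LPS was not tested. In H2-K1, H2-D1, H2-Q4, H2-Q6 and H2-Q7 the kappa B match and the interferon-type match were separated by 10 bases. The gap was 12 bases in H2-T22, 15 bases in H2-M3 and 3 bases in B2m, where the order of the motifs was inverted. Kappa B matches on opposite strands overlapped each other in several members, as the motif is close to a palindrome.

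Downstream of this stretch the class I promoter is known to hold a cAMP response element half-site and an inverted CCAAT box, which belong to the module bound by RFX, CREB, NF-Y and the transactivator Nlrc5. The letters TGACG were found in 7 of 9 members, not in H2-Q6 and H2-T23, against 20.8% of all promoters. On the strand of the gene they stood before an ATTGG match in B2m, H2-K1, H2-D1, H2-Q7 and H2-M3, as at -101 and -76 in H2-D1. In H2-Q4 they came after it, at -73 against -79. In H2-T22 they were at -22, after ATTGG matches at -201 and -88. A match in these last members therefore need not be the half-site of the module. The inverted CCAAT box ATTGG, searched on both strands, was found in 9 of 9 members, against 37.4% of all promoters, and in H2-T23 only on the strand opposite to the gene. The full promoter windows of the light chain and of the heavy chain with the highest level are given with the same capitals, for B2m at chr2:122147437-122147736 and for H2-D1 at chr17:35262844-35263143.
B2m promoter: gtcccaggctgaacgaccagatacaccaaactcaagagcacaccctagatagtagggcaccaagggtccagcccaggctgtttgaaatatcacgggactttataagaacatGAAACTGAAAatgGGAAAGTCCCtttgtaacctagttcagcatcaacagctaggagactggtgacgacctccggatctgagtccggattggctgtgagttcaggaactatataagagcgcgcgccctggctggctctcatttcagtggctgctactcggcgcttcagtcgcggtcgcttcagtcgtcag
H2-D1 promoter: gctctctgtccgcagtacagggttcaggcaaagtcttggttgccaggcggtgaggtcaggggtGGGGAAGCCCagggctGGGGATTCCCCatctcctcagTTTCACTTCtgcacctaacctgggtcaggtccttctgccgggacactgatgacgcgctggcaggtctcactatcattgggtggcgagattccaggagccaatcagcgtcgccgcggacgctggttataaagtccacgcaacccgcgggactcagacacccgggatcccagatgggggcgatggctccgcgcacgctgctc

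A motif match describes letters in this window only and is not evidence of binding. The matches are of letters in the reference strain, and the sequence of N9 cells was not examined.

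**Figure D1:**
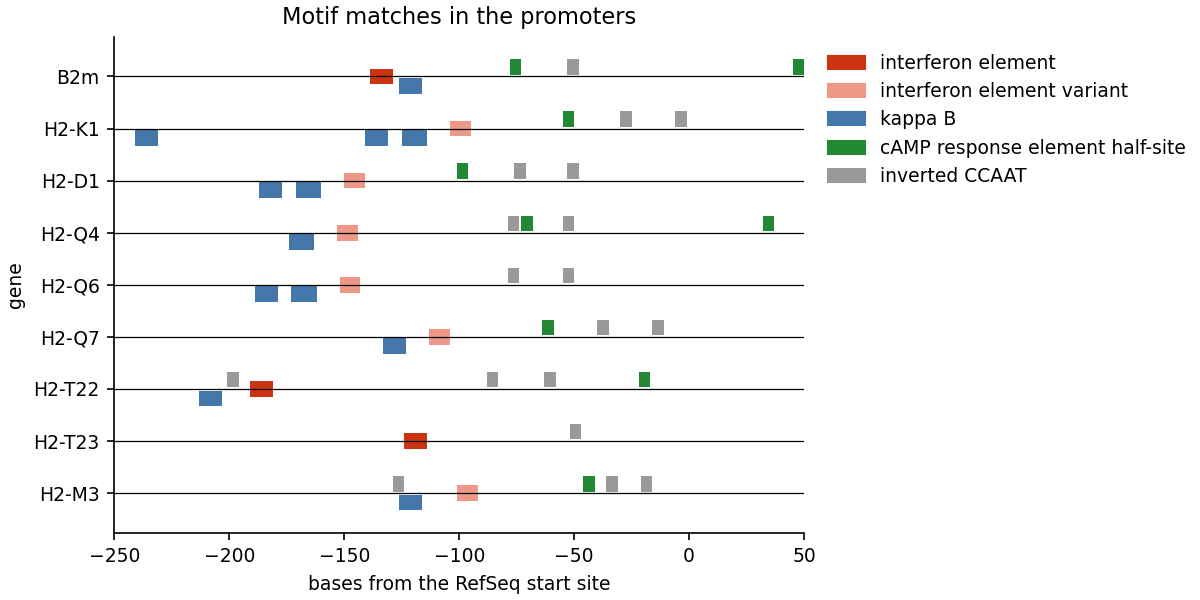
Positions of motif matches in the promoter windows of 9 members, in bases relative to the start site on the x axis, 1 row per gene and a colour for each motif. The kappa B and interferon-type matches stand next to each other in 8 of the 9 rows, and H2-T23 has no kappa B match.

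Most of the class I members rose with LPS. Of the 10 members, 7 were higher in LPS at an adjusted p under 0.05 (B2m, H2-K1, H2-D1, H2-Q4, H2-T22, H2-T23 and H2-T24), and among all 12296 genes tested 18.7% were. In these 7 members the 3 LPS libraries all exceeded the 3 control libraries, which held for 23.7% of all genes tested. No member was lower, H2-M3 and H2-Q7 did not pass the test, and H2-Q6 was below the filter on low counts. The median log2 fold change of the 9 members tested was 0.78, against 0.00 over all genes tested. The 9 members passed the filter in the control libraries alone, so the filter did not favour those higher with LPS. In these bulk samples, a larger number of cells with class I transcripts and more such RNA per cell cannot be told apart.

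B2m (ENSMUSG00000060802, chr2:122147686-122153083, mm10) had the highest level per length of the 10. It was at 499, 496 and 501 CPM in the control libraries and at 731, 683 and 655 CPM in the LPS libraries. The 3 LPS libraries were all higher and spread more widely, with an SD of 38.4 CPM against 2.21 CPM in control (n = 3 each). The mean rose 1.38-fold from 499 to 690 CPM (log2 fold change 0.47, SE 0.04, edgeR adjusted p = 4.5e-07). Its level in control ranked 56th per length among the genes tested.

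H2-D1 and H2-K1, which present peptides to CD8 T cells, made up most of the heavy-chain RNA. H2-D1 (ENSMUSG00000073411, chr17:35262730-35267499) was at 539, 499 and 506 CPM in control and at 887, 882 and 891 CPM with LPS. The groups were far apart relative to their spread, and the mean rose 1.72-fold (log2 fold change 0.78, SE 0.04, edgeR adjusted p = 3.3e-10). H2-K1 (ENSMUSG00000061232, chr17:33996017-34000333) was at 225, 209 and 217 CPM in control and at 344, 335 and 335 CPM with LPS. Its groups did not overlap either, with a 1.56-fold rise (log2 fold change 0.64, SE 0.04, edgeR adjusted p = 2.0e-08).

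Among the Q genes, H2-Q4, which encodes the Qb-1 antigen, was the one with an appreciable level. H2-Q4 (ENSMUSG00000035929, chr17:35379617-35385290) was at 13.0, 14.2 and 15.7 CPM in control and at 34.9, 32.5 and 31.6 CPM with LPS. All LPS libraries were over the control libraries, and the mean rose 2.31-fold (log2 fold change 1.21, SE 0.09, edgeR adjusted p = 6.7e-08). H2-Q6 and H2-Q7 belong to the genes of the Qa-2 antigen, a ligand of natural killer and CD8 T cell receptors. H2-Q7 (ENSMUSG00000060550, chr17:35439155-35443773) had 17, 24 and 41 counts in control and 11, 33 and 43 counts with LPS. The lowest value of all 6 libraries was an LPS library, the groups overlapped, and the log2 fold change was 0.22 (SE 0.42, edgeR adjusted p = 0.728). Its sign turned to -0.015 without control replicate 1 and to -0.16 without LPS replicate 3. H2-Q6 (ENSMUSG00000073409, chr17:35424850-35430055) had 2, 4 and 1 counts in control and 9, 10 and 3 counts with LPS. These overlapping counts were too few for the edgeR fit as filtered. Without the filter its log2 fold change was 1.72 (edgeR adjusted p = 0.176), so that no difference was detected. With the counts of H2-Q6 and H2-Q7 summed, the log2 fold change was 0.43 (edgeR adjusted p = 0.372).

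The T genes had larger fold changes than the classical heavy chains. H2-T23 (ENSMUSG00000067212, chr17:36029773-36032855) encodes Qa-1, which presents leader peptides of other class I chains to the CD94/NKG2 receptors of natural killer cells. It was at 17.8, 15 and 13.5 CPM in control and at 38.1, 37.4 and 33.6 CPM with LPS. The groups were separate, and the mean rose 2.36-fold (log2 fold change 1.24, SE 0.10, edgeR adjusted p = 1.6e-07). H2-T22 (ENSMUSG00000056116, chr17:36037128-36042747) encodes a class I molecule that presents no peptide and is recognised by gamma delta T cells. It was at 18.1, 18 and 17.3 CPM in control and at 35.7, 38.0 and 36.2 CPM with LPS. Each group was narrow and the mean rose 2.06-fold (log2 fold change 1.04, SE 0.07, edgeR adjusted p = 4.2e-08).

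H2-T24 (ENSMUSG00000053835, chr17:36005695-36020560), a non-classical heavy chain, had the largest fitted fold change of the 9 members tested. It had 57, 51 and 54 counts in control and 203, 211 and 170 counts with LPS. The groups were separate, and the mean rose 3.96-fold from 3.04 ± 0.248 to 12 ± 1.45 CPM (SD, n = 3 each; log2 fold change 1.98, SE 0.15, edgeR adjusted p = 9.0e-08). It was the only member over the fold threshold of the study for a differentially expressed gene (DEG), a log2 fold change of 1.5 with an adjusted p under 0.05, which 2.4% of all genes tested passed upward and 0.252% downward. When the fold itself was tested against that threshold with glmTreat of edgeR, H2-T24 was not called.

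H2-M3 (ENSMUSG00000016206, chr17:37270220-37274484), which presents N-formylated peptides such as those of bacteria and mitochondria, did not pass the test, unlike the members nearest to it in level. It was at 17.6, 14.8 and 16.9 CPM in control and at 19.7, 21.6 and 16 CPM with LPS. LPS replicate 3 lay within the control range, and the log2 fold change was 0.22 (SE 0.12, edgeR adjusted p = 0.174). Without that library it was 0.33 (edgeR adjusted p = 0.0358), and it was 0.12 without LPS replicate 2 (edgeR adjusted p = 0.531) and 0.14 without control replicate 2 (edgeR adjusted p = 0.453).

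**Figure D2:**
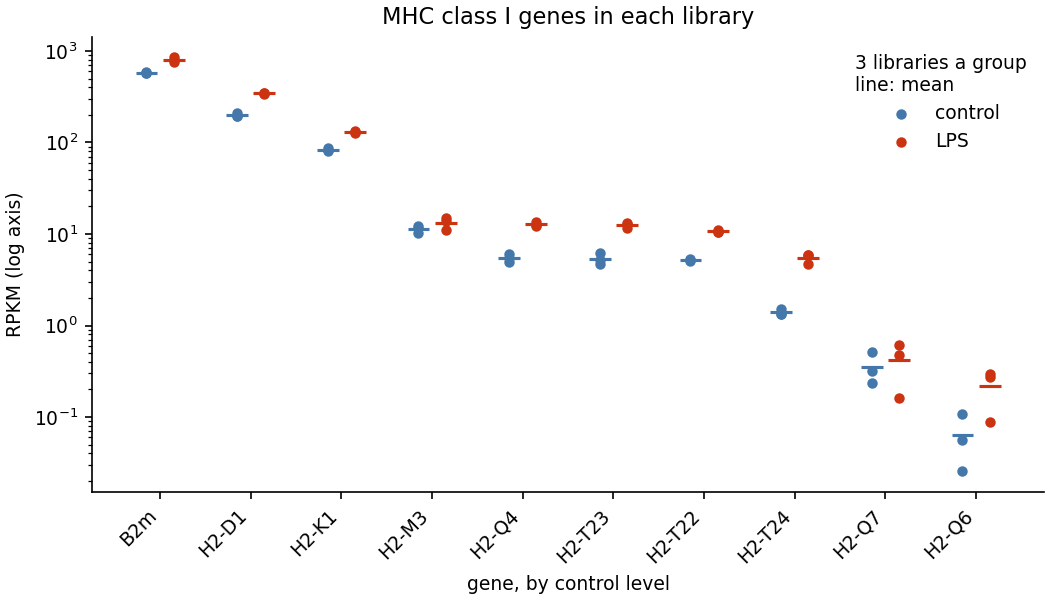
Level of each of the 10 members in every library, in RPKM on a log axis, with control and LPS libraries as separate points and a line at each group mean. B2m sits highest at 577 to 850 RPKM and H2-Q6 lowest, and the groups separate in 7 members but overlap in H2-M3, H2-Q7 and H2-Q6.

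Levels per length had the same order in control and with LPS. In mean RPKM the order was B2m (580 in control and 802 with LPS), H2-D1 (200 and 344), H2-K1 (83.3 and 130), H2-M3 (11.4 and 13.3), H2-Q4 (5.49 and 12.7), H2-T23 (5.34 and 12.6), H2-T22 (5.21 and 10.7), H2-T24 (1.39 and 5.51), H2-Q7 (0.356 and 0.416) and H2-Q6 (0.0635 and 0.218). Neighbours in that order whose libraries overlapped in control were H2-Q4 with H2-T23, and H2-T23 with H2-T22. With LPS the overlapping neighbours were H2-M3 with H2-Q4, H2-Q4 with H2-T23, and H2-Q7 with H2-Q6. B2m, H2-D1 and H2-K1 were each above every non-classical chain in all 6 libraries.

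The size of the change was compared between members. The 7 higher members were ordered by log2 fold change, and each was compared with the next by the log2 ratio of their counts in the same library. The ratio of H2-K1 to B2m was higher with LPS by 0.17 (SE 0.05), that of H2-D1 to H2-K1 by 0.15 (SE 0.02), and that of H2-T22 to H2-D1 by 0.26 (SE 0.04). In each of these 3 comparisons the LPS and control libraries did not overlap. The ratio of H2-Q4 to H2-T22 (0.17, SE 0.11) and of H2-T23 to H2-Q4 (0.03, SE 0.20) overlapped between the groups. The ratio of H2-T24 to H2-T23 was higher with LPS by 0.74 (SE 0.08) without overlap. Since the pairs were formed by sorting on the fold change, the sign of all 6 differences was set by that order. They are given here as a description with no test, and of these ratios only that of H2-K1 and H2-D1 is also tested below.

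**Figure D3:**
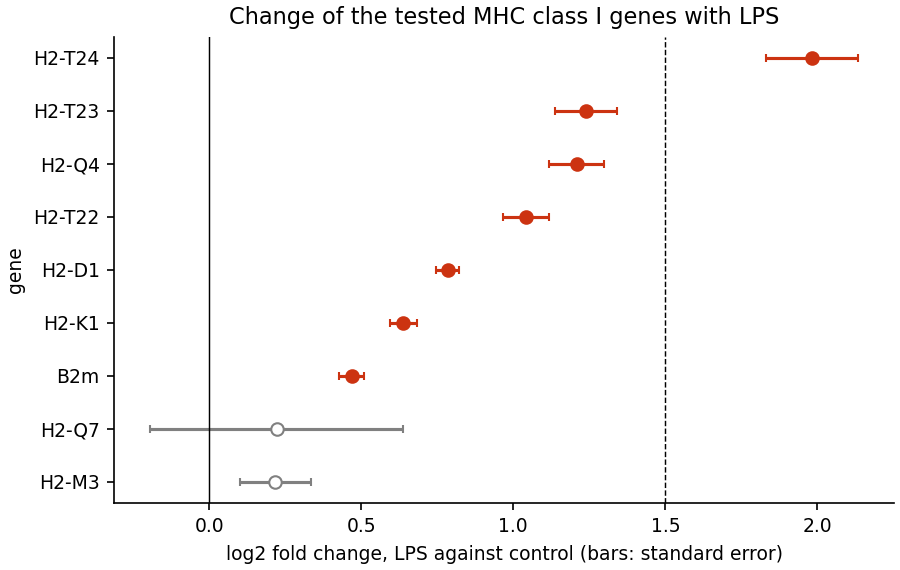
Log2 fold change (LPS against control) of the 9 members tested, each point with its standard error, in order of size, filled where the adjusted p was under 0.05 and with a dashed line at the DEG threshold of 1.5. The values run from 0.22 in H2-M3 and H2-Q7 to 1.98 in H2-T24, and the standard error of H2-Q7 (0.42) is wider than its change.

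Summed over the 9 heavy chains, the level was 835, 775 and 792 CPM in control and 1374, 1362 and 1357 CPM with LPS. The LPS libraries lay close together and above the controls, and their mean was 1.70-fold higher, a description of the members with no test. Without H2-K1 and H2-D1, the remaining 7 heavy chains were 2.03-fold higher with LPS, going from 68.6 ± 2.24 to 139 ± 7.79 CPM (SD, n = 3 each). H2-K1 and H2-D1 together held 90.6% of the heavy-chain RPKM in control and 89.5% with LPS. The share of H2-K1 went from 26.7% to 24.5%, that of H2-M3 from 3.65% to 2.51%, and that of H2-T24 from 0.446% to 1.04%.

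Light and heavy chains pair in equal numbers in the class I molecule, so their balance was compared on the per-length scale. The ratio of B2m RPKM to summed heavy-chain RPKM was 1.78, 1.91 and 1.88 in control and 1.6, 1.5 and 1.45 with LPS. All LPS libraries were below all control libraries, and the mean ratio was 1.86 ± 0.0698 in control and 1.52 ± 0.0728 with LPS (SD, n = 3 each). B2m was above the summed heavy chains per length in all 6 libraries. That level depends on the deposited gene lengths, 860 bases for B2m, 2608 for H2-K1 and 2579 for H2-D1. The sum holds only the heavy chains among the members, not other H2 heavy chains. The log2 ratio of H2-K1 to H2-D1 counts was -1.26, -1.26 and -1.22 in control and -1.37, -1.40 and -1.41 with LPS. The difference of -0.15 had an exact two-sided permutation p of 0.1 with n = 3 in each group, the smallest that 3 libraries against 3 can give.

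**Figure D4:**
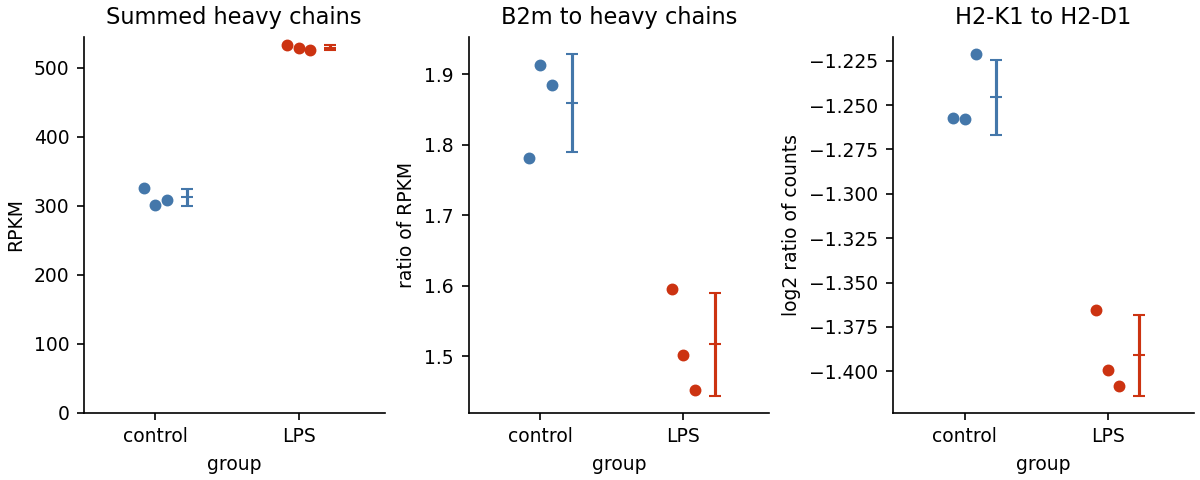
Balance of class I transcripts in each library: the summed heavy-chain level in RPKM, the ratio of B2m to that sum, and the log2 ratio of H2-K1 to H2-D1 counts, with bars for the mean and SD of each group and ratio axes that do not start at 0. With LPS the sum is higher (a mean of 529 RPKM against 312 RPKM in control) and both ratios are lower, with no overlap between the groups in any panel.

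Several members share stretches of sequence with each other or with other H2 genes, and how the authors' counting treated reads that match more than 1 of them is not given in the sources used here. Of the 50-base words in the annotated transcripts, 100% were found in no other gene for B2m, 99.4% for H2-M3, 96.8% for H2-T24, 90.4% for H2-K1 and 87.2% for H2-D1. The share was 85.5% for H2-T23, 73.5% for H2-Q7, 65% for H2-Q6, 63.6% for H2-Q4 and 46.5% for H2-T22. Of 100-base words, 85.9% to 88% were unique for H2-Q4, H2-Q6 and H2-Q7 and 68.5% for H2-T22, against 96.4% or more for each of the other members. The counts of H2-Q4, H2-Q6, H2-Q7 and H2-T22 are therefore less certain. H2-T22 shared 31.2% of its words with H2-T10 and 26.5% with A930015D03Rik, a gene on the opposite strand that overlaps H2-T22, H2-T23 and H2-T24 and had at most 8 counts in any library. B2m overlaps Patl2 and H2-Q4 overlaps Gm11131, both on the opposite strand and with few counts. The part of shared reads in the changes was not tested.

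Of 21 other H2 class I heavy-chain genes listed, 17 were in the table and 2 passed the filter, H2-T10 and H2-Q1. H2-T10, a close relative of H2-T22 that the annotation calls a polymorphic pseudogene, had 48, 38 and 64 counts in control and 152, 157 and 149 counts with LPS. Its groups were separate (log2 fold change 1.75, SE 0.17, edgeR adjusted p = 1.6e-06), and it too was over the DEG threshold. H2-Q1 had 14, 10 and 7 counts in control and 25, 27 and 19 counts with LPS (log2 fold change 1.32, SE 0.38, edgeR adjusted p = 0.0139), and it passed the filter only through the LPS libraries. Under DESeq2, H2-Q1 did not pass the test.

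The machinery that supplies and loads peptides rose in part. Of 16 genes listed, 10 were higher, none was lower and 6 did not pass the test, against 18.7% higher and 15.7% lower of all genes tested, and the median log2 fold change was 0.32. Tap1, a subunit of the peptide transporter, rose from 23.4 ± 3.18 to 80.4 ± 4.87 CPM (SD, n = 3 each; log2 fold change 1.78, SE 0.08, edgeR adjusted p = 3.5e-10) and was the 1 DEG of the list. The general folding factors with the highest levels did not pass the test. Calr was at 1466 and 1445 CPM in control and LPS (log2 fold change -0.02), Pdia3 at 848 and 827 CPM (-0.04), and Canx at 839 and 834 CPM (-0.01). Psme3, a proteasome activator subunit, had a log2 fold change of 0.05 and did not pass. The following genes were picked out after their values were seen. Tapbp, or tapasin, which holds the empty heavy chain to TAP, rose from 130 ± 0.558 to 336 ± 12.1 CPM (SD, n = 3 each; log2 fold change 1.37, SE 0.04, edgeR adjusted p = 3.9e-12). Tap2, the partner of Tap1, had a log2 fold change of 1.04, and the immunoproteasome subunits Psmb8, Psmb9 and Psmb10 of 0.38, 0.72 and 0.71, all higher. The proteasome activator subunits Psme1 (0.24) and Psme2 (0.89), the peptidase Erap1 (0.26) and the tapasin relative Tapbpl (0.73) were the other genes of the list that rose.

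Of 16 transcription factors known to act on class I promoters, 9 were higher, 2 were lower and 5 did not pass the test, where 18.7% of all genes tested were higher and 15.7% lower. The list held 3 DEGs, among them Stat2 and Irf9, which act in interferon signalling. Stat2 went from 18.9 to 89.6 CPM (log2 fold change 2.24, SE 0.09, edgeR adjusted p = 3.6e-11) and Irf9 from 13.0 to 55.0 CPM (log2 fold change 2.08). Nfkb1, a precursor of NF-kappa B, rose from 87.7 to 225 CPM (log2 fold change 1.36) and its partner Rela by 0.21 on the log2 scale. Irf8, a myeloid interferon regulatory factor, fell from 74.8 to 56.3 CPM (log2 fold change -0.41, edgeR adjusted p = 6.6e-05), and Creb1 was the other gene that fell (-0.34). Nfya, a subunit of the CCAAT-binding factor, was at 126 CPM in control and 115 CPM with LPS (log2 fold change -0.13, edgeR adjusted p = 0.0556). Rfx5, Rfxap, Rfxank and Nfyb of the same promoter module did not pass either. Nlrc5, the transactivator of class I genes, was picked out after its values were seen and rose from 24.4 ± 2.68 to 59.5 ± 1.2 CPM (SD, n = 3 each; log2 fold change 1.28, SE 0.08, edgeR adjusted p = 4.2e-09). Irf1 (1.30), Irf2 (0.55) and Nfyc (0.14, edgeR adjusted p = 0.0468) rose as well, and 8 rather than 9 factors were higher in most alternatives, DESeq2 and RLE factors among them.

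**Figure D5:**
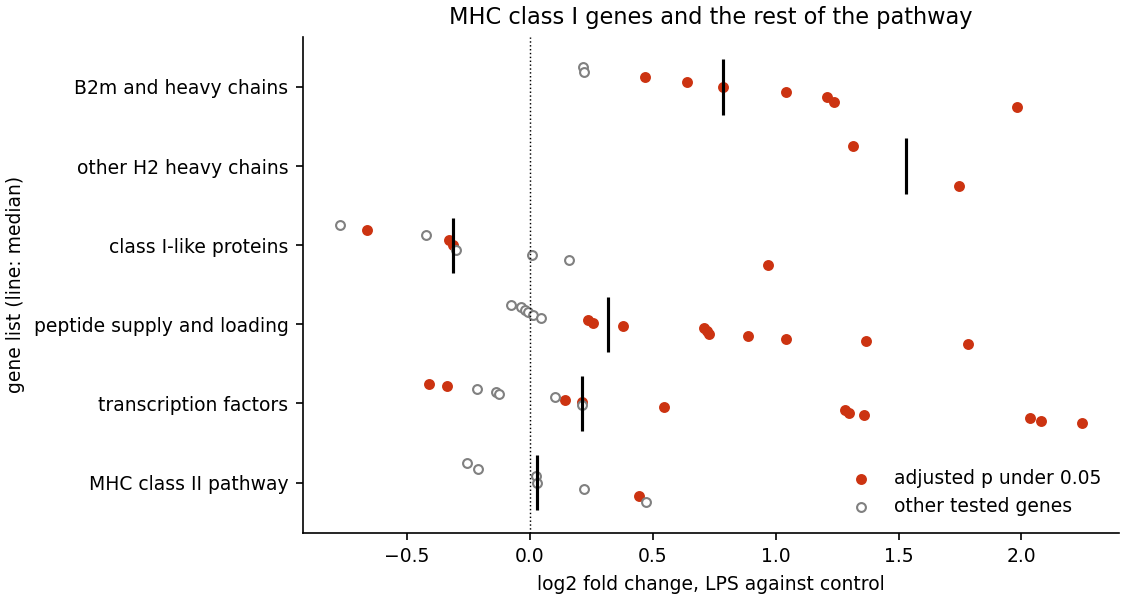
Log2 fold change (LPS against control) of every tested gene in the class I members and 5 related lists, 1 point per gene, filled where the adjusted p was under 0.05, with a vertical line at the median of each list. The members run from 0.22 to 1.98 with a median of 0.78, and the class II list runs from -0.26 to 0.47 with a median of 0.03.

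The MHC class II pathway, which presents peptides from outside the cell to CD4 T cells, was measured in the same libraries. Of 13 genes listed, 7 passed the filter, 1 was higher and 6 did not pass the test, a share near the 18.7% of all genes tested, with a median log2 fold change of 0.03. Cd74, the invariant chain, rose from 347 ± 1.63 to 472 ± 19.2 CPM (SD, n = 3 each; log2 fold change 0.44, SE 0.04, edgeR adjusted p = 6.0e-07). Ctss and Ifi30, a protease and a thiol reductase of the endosome, had log2 fold changes of 0.02 and 0.03 and did not pass. H2-DMb1, part of the class II peptide exchanger, was at 7.80 CPM in control and 6.73 CPM with LPS (log2 fold change -0.21, edgeR adjusted p = 0.245), and was lower in all 3 LPS libraries than in the controls. Its partner H2-DMa, picked out after its values were seen, was higher in all 3 LPS libraries than in the controls but did not pass (log2 fold change 0.47, SE 0.23, edgeR adjusted p = 0.142). The class II chain H2-Eb1 had 17 to 27 counts in every library (log2 fold change 0.22, edgeR adjusted p = 0.661). The class II chains H2-Aa and H2-Ab1 and their transactivator Ciita were at 3 counts or fewer in all 6 libraries.

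The profile of B2m over the 6 libraries was most like that of Cd74, Myd88, Pax5, Surf4 and Rsl1d1, with Pearson r of 0.998 to 0.999 on log2 CPM. These points share the split into control and LPS, and 1029 genes had an r over 0.95. The log2 fold changes of these 5 genes ranged from 0.22 in Surf4 to 6.79 in Pax5, so that a like profile did not mean a like size of change.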

How the data were processed

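Total RNA of N9 cells was sequenced in 3 control and 3 LPS libraries. The authors deposited gene counts, made per the submitters' processing notes with featureCounts 1.5.0-p3 on mm10, and how strand and multi-mapping reads were handled is not given in the sources used here. A second deposited table holds the authors' own DESeq2 comparison, with fold changes and p-values. It was not used, nor were its 18 per-sample and 2 group-mean columns.

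The deposited counts were tested with edgeR 4.0.16 in R 4.3.3: genes were filtered by filterByExpr (12296 of 54532 genes kept), scaled by TMM, and fitted by the quasi-likelihood test with Benjamini-Hochberg adjustment over all genes tested. Fold changes are LPS relative to control with a prior count of 0.125. DEGs were called at the cutoffs of the study, an adjusted p under 0.05 with a log2 fold change beyond 1.5 either way. RPKM used the deposited gene lengths, and the tested log2 ratio of H2-K1 to H2-D1 counts a pseudocount of 0.5. The log2 ratios between neighbours in the order of change used none. The H2-K1 to H2-D1 ratio was tested by exact permutation in scipy 1.17.1. The fit was tested on simulated data, where changes were put only into well-counted genes and were larger than those of B2m, H2-K1 and H2-D1. It therefore does not cover smaller changes or low counts.

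The members and gene lists were chosen with earlier results of these data known. Named genes were all 10 members, and from each gene list the 4 with the highest mean CPM and the DEGs. Any other list gene or marker named was chosen with its values seen. There is 1 transcription factor that is counted in its list but not reported here by name. Alternatives were DESeq2 1.42.0, RLE factors, other filters, a robust fit, a prior count of 2, glmTreat, a replicate block, H2-Q6 and H2-Q7 summed, each library left out, and, chosen after seeing the data, control replicate 1 alone as control. Genome positions are those of the table (mm10). Promoters were from RefSeq (GRCm38.p6), and transcript words from GENCODE M21.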

Additional observations from a re-analysis of the deposited data

How the results depend on the processing

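Over 15 alternatives, 7 to 8 members were higher with LPS, and the count was 8 without LPS replicate 3, where H2-M3 passed. The 7 members called kept their call and direction in each of them, including the fit with 1 control library, where that library is assumed to vary like the others. H2-T24 was the 1 DEG in every alternative except glmTreat against a log2 fold change of 1.5, under which 0 members were called. The log2 fold change of H2-Q7 was -0.015 without control replicate 1 and -0.16 without LPS replicate 3, 0.60 without LPS replicate 1, and 0.84 with control replicate 1 as the only control. The summed heavy-chain level, 1.70-fold, was 1.59-fold on raw library totals and 1.67-fold for H2-K1 and H2-D1 alone. With a library left out it was 1.68- to 1.74-fold. The TMM factors, which raw totals leave out, were 1.03 to 1.04 in control and 0.965 to 0.97 with LPS. What set the factors of the groups apart was not tested. With the replicate number as a block, 7 members were higher and the counts over all genes were 2454 higher and 2020 lower, against 2294 and 1927 without it. The block changed no call of a member. Same-numbered libraries deviated together with r of 0.136, 0.0588 and -0.00415, and differently numbered ones with r of -0.144 to 0.0912. These few values cannot decide whether the numbers pair the samples. The peptide supply and loading genes gave 10 higher throughout and the transcription factors 8 to 9, with 8 in 9 of 14 alternatives. With 3 libraries a group, ratios cannot reach an exact p below 0.1, and H2-Q6 and H2-Q7 are limited by their counts. The strain of N9 and its H2 alleles are not given in the sources used here, whereas the reference is of 1 strain, and the effect of this on counts of polymorphic copies was not tested.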

Other observations

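Of 17 class I-like proteins listed, which resemble the heavy chains in fold but have other ligands, 14 were in the table and 9 passed the filter. In these 1 was higher, 3 were lower and 5 did not pass the test, where 18.7% of all genes tested were higher and 15.7% lower. The median log2 fold change was -0.31. Procr, the protein C receptor, rose from 52.0 ± 2.82 to 102 ± 4.95 CPM (SD, n = 3 each; log2 fold change 0.97, SE 0.06, edgeR adjusted p = 3.6e-09). Hfe, a regulator of iron uptake, was lower at 13.3 CPM with LPS than at 16.5 CPM in control (log2 fold change -0.31, edgeR adjusted p = 0.0271). Raet1d, a ligand of the activating receptor NKG2D that binds no B2m, was lower at 11.9 CPM than at 15 CPM (log2 fold change -0.33, edgeR adjusted p = 0.0221). Mr1, which presents vitamin B metabolites to T cells, was at 9.83 CPM in control and 7.99 CPM with LPS and did not pass (log2 fold change -0.30, edgeR adjusted p = 0.122). Fcgrt, the neonatal Fc receptor for IgG, picked out after its values were seen, was lower at 5.87 CPM than at 9.28 CPM (log2 fold change -0.66, SE 0.14, edgeR adjusted p = 0.00181). Cd1d1, a lipid-presenting partner of B2m that was likewise named with its values known, did not pass (log2 fold change 0.01, edgeR adjusted p = 0.989).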
